A study of Mus musculus with 234 samples.

Results

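The cytosolic ribosomal proteins are the protein components of the ribosomes that translate nuclear-encoded mRNAs. They were described here as 82 genes in single cardiomyocytes (CMs) of mice that express human BAG3 P209L, a mutant of the co-chaperone BAG3 that causes cardiomyopathy in patients. Members were all features whose symbol names a ribosomal protein of the large subunit (Rpl), the small subunit (Rps) or the stalk (Rplp0, Rplp1, Rplp2), or Rpsa, with a count in at least 10% of all cells. Rpl3 and its muscle paralogue Rpl3l, pseudogenes named -ps and the Rps6k kinases were not part of the group. Of the 55538 features, 87 symbols met the rule on names and 82 the limit on detection as well, 45 of the large subunit, 3 of the stalk and 34 of the small subunit. Just inside the limit were Rpl32l with a count in 20.5% of cells, Rpl6l in 31.6%, Rps3a3 in 32.5% and Rpl13a in 43.6%. Just outside were Rpl24 with 7.69%, Rpl10l with 7.26%, Rps10 with 4.70% and Rpl39l with 2.56%, and Rps12l1 had no count.

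The hearts of 5 mice had been dissociated and single CMs picked manually for SMART-seq2, a full-length method without molecular identifiers. CMs of the homozygous CAG-BAG3 P209L mice M25 (21 bright and 18 dim cells) and M116 (59 bright and 50 dim) and of the heterozygous mouse M72 (27 bright and 26 dim) were classed by the brightness of the eGFP fused to the mutant protein. Their transgene lies in the Rosa26 locus under the ubiquitous CAG promoter, in a line derived from G4 hybrid embryonic stem cells, and was switched on by a PGK-Cre that acts in all tissues. Control CMs came from M26 (24 cells) and M73 (9 cells), whose label names the strain C57BL/6, whereas the methods describe control siblings that were wild type or carried only the Cre or only the silent transgene. The mice were 2 weeks old, except that the age of M72 is not given. Library names place M25 and M26 on a plate with the prefix GL-9122b, M73 and M72 on plate 1 of the prefix GL9989 and M116 on its plates 2 and 3. Each control mouse thus shared a prefix with 1 homozygous mouse, M116 shared no plate with M73, and what the prefix stands for is not given. All cells of a mouse with the same brightness were added up, because cells of 1 heart are not replicates, and the 8 sums held between 4096609 (M73) and 40508124 (bright CMs of M116) counts. All 10 CM markers were detected in every sum, at 92165 to 112460 CPM (counts scaled to a common total per sum) together. Mitochondrially encoded genes took 21.9% of counts in M73 and 16.8% and 17.4% in M72, against 9.54% to 11.6% in the other sums.

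Ribosomal proteins are made in amounts that match the ribosomal RNAs, and unused ones are degraded. Their mRNAs begin with a run of pyrimidines, the terminal oligopyrimidine (TOP) motif, through which mTOR and LARP1 set their translation and stability together. The stalk proteins recruit the elongation factors to the ribosome, and a growing heart muscle cell needs ribosomes to build its sarcomeres. BAG3 itself acts in the removal of damaged sarcomeric proteins.

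To show the start of these mRNAs, 30 bases around the annotated transcription start are given for 7 members, from 15 bases before the start to the 15 that begin with it (RefSeq, GRCm38.p6). They lie in the promoter and the beginning of exon 1. Capitals mark the unbroken run of C and T that begins with a C at the start, and none are given where the transcript does not begin with C.
Rpl15, chr14:18270972-18271001, minus strand: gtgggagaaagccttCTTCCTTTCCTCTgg
Rps6, chr4:86857353-86857382, minus strand: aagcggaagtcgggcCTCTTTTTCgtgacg
Rps15a, chr7:118116133-118116162, minus strand: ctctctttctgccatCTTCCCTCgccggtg
Rps27, chr3:90213634-90213663, minus strand: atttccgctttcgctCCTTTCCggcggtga
Rplp2, chr7:141447636-141447665, plus strand: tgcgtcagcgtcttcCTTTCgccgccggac
Rps27l, chr9:66946071-66946100, plus strand: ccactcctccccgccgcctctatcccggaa
Rpl22l1, chr3:28805493-28805522, plus strand: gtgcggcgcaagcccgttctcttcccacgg
The first 5 were picked from the members with such a run and the last 2 for their place in paralogue pairs. Rps27l and Rpl22l1 do not begin with C, but a run opens within 5 bases of the start in both, and Rpl22, the partner of Rpl22l1, has no such run in either of its 2 windows. A run of at least 5 pyrimidines that opens with C at the start was found in 13 of the 59 members with a window (22.03%) and in 800 of 26966 other genes (2.97%). When the run was allowed to open within 5 bases of the annotated start, it was found in 29 members (49.2%) and in 5689 other genes (21.1%). Only the strand of the gene was searched, and the match is a description of these letters at annotated starts, which can be some bases from the starts used in CMs.

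Most members were abundant and steady across the hearts. A count was found in at least 90% of cells for 73 members, and the highest CPM among the 8 sums was less than 2 times the lowest for 58 members. Rps4x, the X-linked form of Rps4, varied least, between 229 and 298 CPM. Rpl26 varied most among members above 10 CPM, between 13.5 and 139 CPM. Rpl32l and Rpl6l, a predicted paralogue and a pseudogene in the annotation, were at 0 in M73 and at most at 0.653 and 1.11 CPM elsewhere.

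Levels of different genes were compared per kb of transcript, for the 77 members with a gene model in GENCODE M21. This annotation was chosen here, since the one used for counting is not given in the sources used here. The median member stood at 162 CPM per kb and the quartiles at 115 and 259. Rps14 was highest, at a median of 711 CPM per kb over the 8 sums (556 to 730), followed by Rpl36 at 654 (478 to 717), the stalk proteins Rplp1 at 614 (421 to 728) and Rplp2 at 579.6 (332 to 693), and Rpl41, the smallest ribosomal protein, at 552 (463 to 621). The ranges of these 5 overlapped, so that their order was not larger than the spread between sums. The lowest were Rpl13a at 4.30 CPM per kb (3.16 to 6.97), Rpl22l1 at 8.86 (5.31 to 21.3), Rpl23a at 11.6 (8.28 to 20.4), Rps20 at 27.3 (20.9 to 36.003) and Rpl7l1 at 29.0 (17.5 to 35.4).

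**Figure D1:**
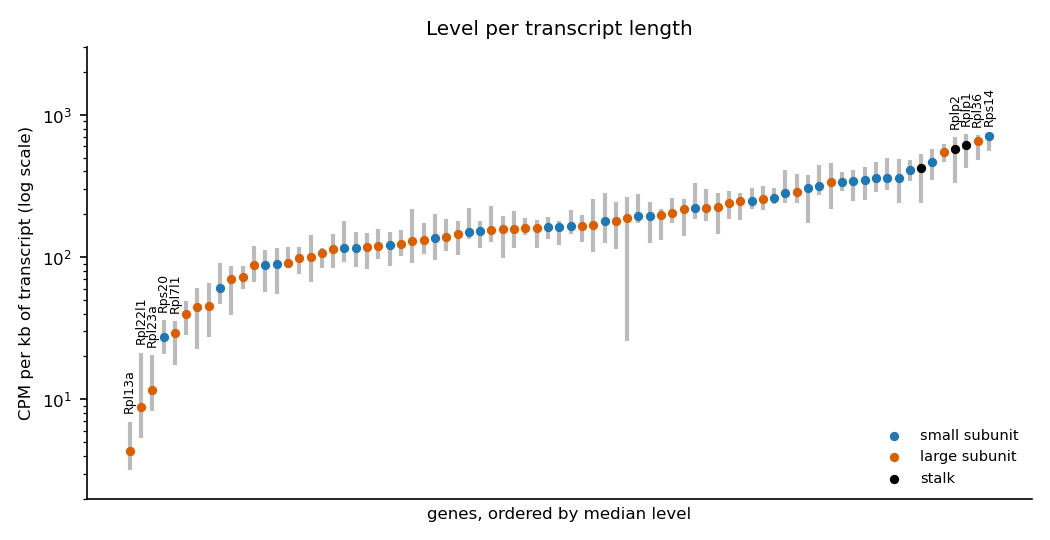
Level per transcript length of the 77 members with a gene model, ordered from low to high on the horizontal axis, as CPM per kb on a log axis. Points are medians over the 8 sums, coloured by subunit, and grey bars run from the lowest to the highest sum. The median member lies at 162 CPM per kb, the quartiles at 115 and 259, and Rpl13a lowest at 4.30.

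Some low values were those of genes that share sequence or position with others. Exons of other genes cover 59.3% of Rpl13a on its own strand (Gm45713 and Mir5121), and of the symbols that missed the detection limit, 71.5% of Rpl24 (Gm28037) and 91.6% of Rps10 (RPS10-NUDT3). Rpl24 stood at 0.240 and Rps10 at 0.146 CPM per kb, although both are core parts of every ribosome. Reads from an overlap can be counted for neither gene, and the libraries do not mark strand, so that 55.4% of Rpl23a (under Tlcd1) and 68.3% of Rpl35 (under Arpc5l and Wdr38) can also be affected. The model used for Rps20 is 3706 bases long. The levels of these genes are uncertain, and the part of the overlaps in them was not tested.

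The paralogue pairs differed in their balance. Rpl22, which binds RNA in the large subunit, stood at 96.2 to 157 CPM per kb and its paralogue Rpl22l1 at 5.31 to 21.3, without overlap. Rpl7 stood at 128 to 229 and Rpl7l1 at 17.5 to 35.4, again without overlap. Rps27 (293 to 396) and Rps27l (174 to 376), a p53 target in other cells, overlapped. Of Rps27, 98.7% of the 50-base stretches also occur elsewhere in annotated transcripts, and this was above 90% for 5 members, so their counts can be shared with copies. Such stretches made up 65.6% of Rpl22l1 and 24.5% of Rpl22, and 53.3% of Rpl7 and 12.2% of Rpl7l1. Exons of Gm33051 also cover 28.8% of Rpl22l1. The low level of Rpl22l1 against Rpl22 is therefore uncertain, and the part of shared sequence in it was not tested.

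The 82 genes together took about 1 in 100 counts in every heart. Their share was 1.20% in M26 and 1.07% in M73. In the homozygous mice it was 1.38% in the bright and 1.18% in the dim CMs of M25, and 1.21% in the bright and 1.01% in the dim CMs of M116. In the heterozygous M72 it was 1.01% in the bright and 1.24% in the dim CMs. Bright CMs were therefore higher than dim CMs in both homozygous mice and lower in the heterozygous mouse, and the sums ranged from 1.01% to 1.38%. Exact 95% binomial intervals, which cover counting error of reads only, were within 0.01 percentage points of each share. Reads without molecular identifiers are not independent molecules, so that the error from sampling molecules is not known. A larger share cannot be told apart from less RNA of other genes in the same cells.

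**Figure D2:**
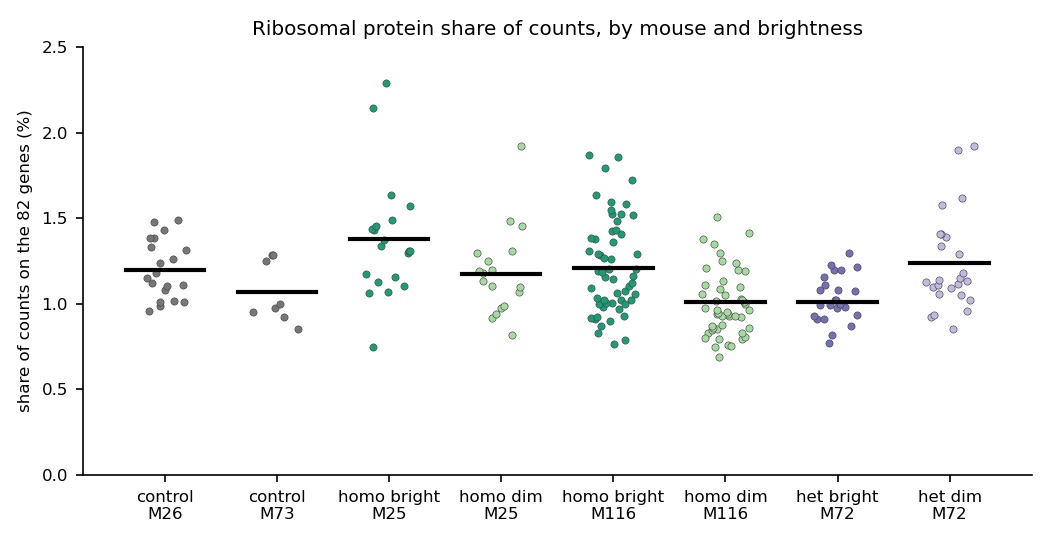
Share of counts on the 82 ribosomal protein genes in percent on the vertical axis, by mouse and brightness class. Points are cells with at least 1000 detected genes and black lines the share of the summed counts. The line of the bright CMs lies above that of the dim CMs in M25 and M116 and below it in M72.

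The share varied among the cells of a heart, and the sums average over such cells. Over cells with at least 1000 genes, the share ran from 0.748% to 2.29% in the bright CMs of M25 with a median of 1.32%, and from 0.692% to 1.51% in the dim CMs of M116 with a median of 0.956%. The coefficient of variation over cells lay between 13.2% (bright, M72) and 25.8% (bright, M25). The ratio of large subunit and stalk counts to small subunit counts stayed between 0.976 (M73) and 1.18 (bright CMs of M116). Within a sum, the large and small subunit shares of cells followed each other with Spearman coefficients of 0.627 to 0.941 over 8 to 56 cells, which share library and depth.

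The homozygous mice allowed a comparison of bright with dim CMs, which is given first since they came from the same hearts and plates. Most members were somewhat higher in bright CMs. With all 4 sums, 77 of 82 members were higher and 5 lower, with a median log2 difference of 0.22 against −0.01 over all 13439 genes tested. The difference was seen in each mouse, with a median of 0.22 and 70 of 82 members higher in M25, where 49.1% of all genes were higher, and a median of 0.20 and 76 of 82 higher in M116, where 50.1% were. Bright exceeded dim in both mice for 65 members (79.3%), against 25.4% of all genes tested, and the reverse held for 1 member, Rps3a3, also against 25.4%. The large subunit (42 of 45 higher, median 0.21), the small subunit (32 of 34, 0.24) and the stalk (3 of 3, 0.27) each had most members higher.

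No single member passed the test. With edgeR's quasi-likelihood test and Benjamini-Hochberg adjustment over all genes, 0 of 82 members were called at an adjusted p under 0.05, where 0% of all genes were, and 0 had an unadjusted p under 0.05, where 4.12% of all genes had. DESeq2 also called 0 members, where it called 0.689% of all genes. With the mouse as a block, the median was again 0.22 and 3 members (3.66%) had an unadjusted p under 0.05, where 3.48% of all genes had, with 0 called. With 1 sum left out, which breaks a pair, the members' median ranged from 0.041 (without bright CMs of M25) to 0.41 (without dim CMs of M25). Without bright CMs of M25, 47 members were higher and 35 lower, and all genes had a median of −0.054. Without dim CMs of M116, 53 were higher and 29 lower, and the members' median of 0.078 lay below the 0.12 of all genes. Without bright CMs of M116 it was 0.35, and all genes had −0.12. In the exact paired permutation test over the 2 mice, the share of counts was 1.29% ± 0.119 (SD, n = 2) in bright and 1.09% ± 0.117 in dim CMs, a difference of 0.200 percentage points (two-sided p = 0.5, the smallest that 2 pairs allow). Leaving out the bright CMs of M25 left 1.21% against 1.09%, and leaving out the dim CMs of M116 left 1.29% against 1.18%.

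Rps15a, a small subunit protein, had the largest difference in bright over dim CMs, with 143 and 108 CPM in the bright CMs of M25 and M116 and 93.3 and 85.8 CPM in the dim CMs. Its log2 fold change in edgeR was 0.46 ± 0.26 (SE), with an adjusted p of 0.999, and ranged from 0.19 to 0.69 with 1 sum left out. Rpl7a, of the large subunit, stood at 221 and 194 CPM in bright and 169.9 and 134 CPM in dim CMs (log2 fold change 0.42 ± 0.25). With 1 sum left out, its log2 fold change ranged from 0.23 to 0.65. Both were named for their large differences, and were higher in bright CMs of each mouse, as were 25.4% of all genes tested.

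Rpl10, which joins the large subunit last in its assembly, stood at 207 and 178 CPM in bright and at 155 and 139 CPM in dim CMs. Rps6, the substrate of the S6 kinases, stood at 97.7 and 87.8 CPM in bright and 70.1 and 78.3 CPM in dim CMs. Both were higher in bright CMs of each mouse, and the log2 fold changes were 0.36 ± 0.23 and 0.30 ± 0.23. The stalk proteins had log2 fold changes of 0.14 ± 0.22 (Rplp0), 0.29 ± 0.30 (Rplp1) and 0.27 ± 0.36 (Rplp2). Rpsa, the small subunit protein also known as the laminin receptor, had 0.11 ± 0.21.

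The lowest log2 differences were those of Rps3a3, Rpl22l1 and Rpl26. Rps3a3, listed as a pseudogene in RefSeq, stood at 1.11 and 2.15 CPM in bright and at 2.29 and 2.18 CPM in dim CMs (−0.50 ± 1.10). Rpl22l1 stood at 5.66 and 6.91 CPM in bright and at 11.8 and 4.12 CPM in dim CMs, so that the mice went opposite ways. Rpl26 was at −0.08 ± 0.23, and the standard errors of these differences exceeded the differences.

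The brightness classes also differed in transcripts of other cell types. A list of 7 endothelial markers summed to 189.9 and 184 CPM in bright and to 509 and 406 CPM in dim CMs of M25 and M116, and 7 leukocyte markers to 0.264 and 2.00 CPM in bright and 75.1 and 69.4 CPM in dim CMs. For the leukocyte list, 5 and 4 markers were at 0 in the bright sums, and 1 and 0 in the dim sums. The median well held 0 CPM of this list in all these sums, and 1 well in each dim sum passed 1000 CPM (1317 CPM in M25 and 1776 CPM in M116). A list of 7 fibroblast markers summed to 2239 CPM in the bright CMs of M25, where 1 well alone reached 44926 CPM, and to 57.6 CPM in those of M116, against 52.3 and 210 CPM in dim CMs. Erythroid markers summed to 3.97 and 0.173 CPM in bright and to 331 and 0.813 CPM in dim CMs. The 5 smooth muscle and pericyte markers summed to 788 and 1642 CPM in bright and 1115 and 1408 CPM in dim CMs, and the 3 of them tested were lower in bright CMs, 2 with an unadjusted p under 0.05 and 0 called by edgeR's quasi-likelihood test. Over all sums, 20 wells held at least 1000 CPM of the fibroblast, the leukocyte or the erythroid list. Without them, in a comparison added after the values were seen, 73 members were higher and 9 lower in bright CMs, the median was 0.17 and the share differed by 0.117 percentage points in M25 and 0.208 in M116. The part of the endothelial and pericyte transcripts in the difference was not tested, and endothelial markers were also lower in bright than in dim CMs of the heterozygous M72 (298 and 502 CPM). Within M116, bright CMs held 1.11% and 1.31% on plates 2 and 3 and dim CMs 0.986% and 1.05%, so that bright was higher on each plate.

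The heterozygous mouse had the opposite order. In M72, 61 of the 80 members compared were lower in bright than in dim CMs and 19 higher, with a median log2 difference of −0.16 against −0.01 over all genes, of which 50.3% were lower. Of the 65 members higher in bright CMs of both homozygous mice, 54 were lower in bright CMs of M72. Rps15a stood at 92.8 CPM in its bright and 130.0 CPM in its dim CMs, and Rpl10 at 139 and 171 CPM. The share of counts in bright minus dim CMs was −0.230 percentage points, and −0.110 as the median over cells. With 1 heterozygous mouse there is no test, and genotype and mouse cannot be told apart. Erythroid markers (4 genes) summed to 984 CPM in its bright and 0.886 CPM in its dim CMs and fibroblast markers to 469.8 and 22.9 CPM. Without the 7 of 27 bright wells rich in such markers it was −0.213 percentage points (1.02% against 1.24%).

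**Figure D3:**
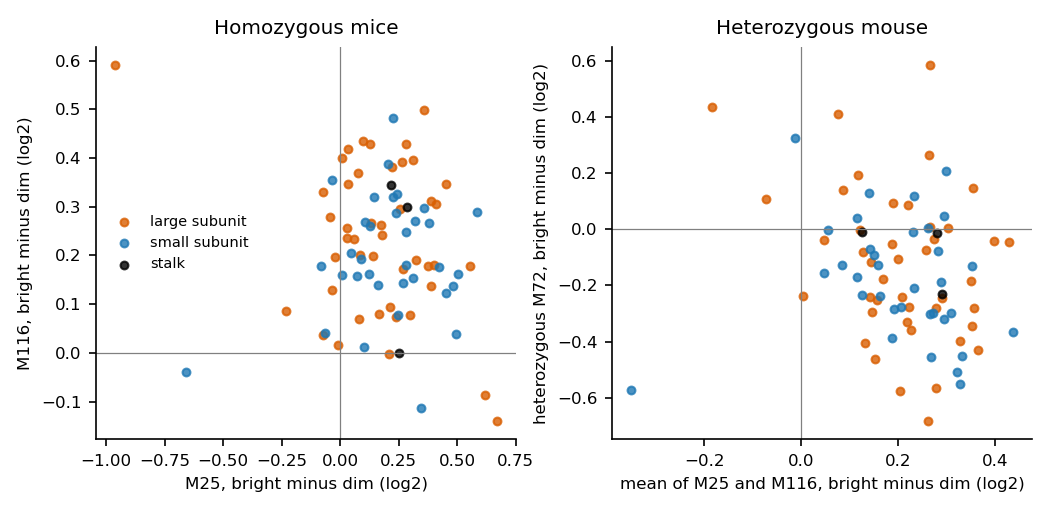
Bright minus dim CMs as log2 difference of each member, in the homozygous mice against each other on the left and in the heterozygous M72 (vertical axis) against the mean of M25 and M116 (horizontal axis) on the right. Points are genes, coloured by subunit. Most points lie above 0 for both homozygous mice, and 61 of 80 lie below 0 for M72.

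Bright CMs were next compared with control CMs, which asks for the difference of strongly expressing mutant CMs from CMs without the mutant. The members divided between higher and lower values. Of 81 members tested, 36 were higher and 45 lower, with a median log2 fold change of −0.05, and that of all 12203 genes tested was 0.11. With library size alone, 63 were higher and 18 lower. The median was 0.06 without the bright CMs of M116 (50 of 82 higher) and −0.17 without those of M25 (57 of 81 lower). The large subunit split into 23 higher and 21 lower (median 0.01), the small subunit into 13 and 21 (−0.07), and the 3 stalk proteins were lower (−0.40), of which Rplp0 (−0.02 ± 0.39) was at 0.27 with library size alone and at 0.55 without M26. No member was called by edgeR's quasi-likelihood test after Benjamini-Hochberg adjustment, where 0.0164% of all genes were, 0 had an unadjusted p under 0.05, where 6.55% of all genes had, and DESeq2 called 0, where it called 1.01% of all genes. Both homozygous mice lay above both controls for 5 members (6.17%), against 24.3% of all genes, and below them for 20 (24.7%), against 14.8%. This was counted on TMM-normalized CPM only.

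The share of counts was 1.29% ± 0.119 (SD, n = 2) in bright and 1.13% ± 0.0892 in control CMs, a difference of 0.160 percentage points (two-sided exact permutation p = 0.33, the smallest that 2 mice against 2 allow), and both bright sums lay above both control sums. As the median over cells it was 0.139 points (exact permutation p = 0.67), with bright CMs of M116 (1.17%) below M26 (1.21%). It was 0.0759 points without the bright CMs of M25, 0.0973 without M73, 0.245 without the bright CMs of M116 and 0.223 without M26. With mitochondrially encoded genes left out of the total, it was 0.0845 points (exact permutation p = 0.67). The fold changes and the shares thus had opposite signs. The TMM factors of edgeR, which equalise the bulk of genes, account for a shift between these scales: with library size alone the median of all genes was 0.41 and that of the members 0.27, so that the members' median minus that of all genes was −0.15 under library size and −0.16 under TMM. This difference was 0.043 without the bright CMs of M116, −0.33 without those of M25, −0.28 without M73 and −0.96 without M26.

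The pairs of mice with the same prefix differed from each other. M25 against M26 gave a median of 0.06 with 48 of 81 members higher, where all genes had 0.01 and 50.6% were higher. M116 against M73 gave a median of −0.16 with 29 of 81 higher, where all genes had 0.38 and 59.9% were higher. M73 is the control with 9 cells and the largest mitochondrial share.

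Markers of cell types stood apart as well. Against control, bright CMs had lower values of all 10 CM markers (median log2 fold change −0.67), 6 of 6 fibroblast markers tested were higher (3.66) and 5 of 7 endothelial markers lower (−0.80), with 0 of them called by edgeR's quasi-likelihood test and 4, 1 and 1 at an unadjusted p under 0.05. The fibroblast list summed to 123 and 32.7 CPM in M26 and M73 and to 57.6 CPM in the bright CMs of M116, so that its high value was that of M25. For the endothelial list the sums were 258 and 320.5 CPM in M26 and M73. Without the marker-rich wells, 31 members were higher and 50 lower in bright CMs, with a median of −0.07.

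Among single members, Rps4l had the lowest log2 fold change in bright against control CMs (−0.69 ± 0.38). It is a transcribed pseudogene in RefSeq, and stood at 74.96 and 80.6 CPM in control and at 53.1 and 68.6 CPM in bright CMs. Rps12, of the small subunit, stood at 60.9 and 88.4 CPM in control and 66.2 and 52.7 CPM in bright CMs (−0.66 ± 0.44), with overlap. On TMM-normalized CPM both bright sums of Rps12 lay below both controls, as for 14.8% of all genes. The stalk protein Rplp2 stood at 272 and 292 CPM in control and 268 and 182 CPM in bright CMs (−0.64 ± 0.34). With 1 sum left out, Rps4l ranged from −0.84 to −0.51, Rps12 from −0.96 to −0.26 and Rplp2 from −0.95 to −0.36. At the other end were Rpl5, which carries the small ribosomal RNA of the large subunit and binds Mdm2, with 85.7 and 56.4 CPM in control and 134 and 107 CPM in bright CMs (0.46 ± 0.38), Rpl34 (0.44 ± 0.41) and Rpl26 (1.00 ± 0.83, adjusted p 0.929 in edgeR). For Rpl5, Rpl34 and Rpl26 the groups did not overlap in CPM. Rpl34 stood at 52.2 and 70.3 CPM in control and 88.1 and 123 CPM in bright CMs. On TMM-normalized CPM only Rpl5 and Rpl26 of these lay above both controls, as did 24.3% of all genes. With 1 sum left out, Rpl5 ranged from 0.27 to 0.70 and Rpl34 from 0.18 to 0.78.

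In dim CMs, most members were lower than in control CMs once all genes were put on 1 scale. Of 81 members, 68 were lower and 13 higher, with a median log2 fold change of −0.25 where all 12195 genes had 0.10. With 1 sum left out, the median ranged from −0.42 (without dim CMs of M25) to −0.11 (without those of M116). Library size alone gave 43 members higher and 38 lower and turned the direction of the members' median to 0.036, with that of all genes at 0.38, so that the members' median minus that of all genes was −0.35 under both scalings. This difference ranged from −0.13 (without the dim CMs of M116) to −1.11 (without M26), and was −0.60 without the dim CMs of M25 and −0.50 without M73. Small subunit genes (30 of 34 lower, median −0.35), large subunit genes (35 of 44, −0.19) and the stalk (3 of 3, −0.69) were mostly lower. Both homozygous mice lay below both controls for 41 members (50.6%), against 14.2% of all genes, and above them for 2 (2.47%), against 23.8%. This was counted on TMM-normalized CPM only. In M25 against M26 the median was −0.17 and in M116 against M73 it was −0.42, each with 16 of 81 members higher, where 50.4% and 60.4% of all genes were higher.

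Cell type markers differed in the same comparison. All 6 leukocyte markers tested were higher in dim than in control CMs (median log2 fold change 4.16), 6 of 7 endothelial markers were higher (0.11) and 9 of 10 CM markers lower (−0.57), with 0 called by edgeR's quasi-likelihood test and 3, 1 and 1 at an unadjusted p under 0.05. The leukocyte list summed to 2.09 and 12.4 CPM in M26 and M73, with 4 and 1 of its 7 markers at 0, and in each dim sum it was above 1000 CPM in a single well and at 0 in the median well. Without the marker-rich wells, 12 members were higher and 69 lower in dim CMs, with a median of −0.27.

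Again no member was called with edgeR's quasi-likelihood test and Benjamini-Hochberg adjustment (0% of all genes called), nor with DESeq2 (0.522% of all genes called). An unadjusted p under 0.05 was reached by 3 members, against 6.22% of all genes, and all 3 were lower in dim CMs. Rps13, of the small subunit, stood at 166 and 196 CPM in control and 123 and 109.8 CPM in dim CMs (log2 fold change −0.93 ± 0.34, unadjusted p 0.031, adjusted p 0.735 in edgeR). Rps4l stood at 44.6 and 53.2 CPM in dim CMs (−0.97 ± 0.39, adjusted p 0.776) and Rplp2 at 227 and 139.6 CPM (−0.91 ± 0.38, adjusted p 0.794). None of these 3 overlapped between dim and control CMs. Rps12 was at −0.95 ± 0.43, Rplp1 at −0.69 ± 0.33, Rpsa at −0.55 ± 0.32 and Rplp0 at −0.17 ± 0.39, which turned to 0.10 with library size alone and to 0.42 without M26. With 1 sum left out, Rps12 ranged from −1.24 to −0.57, Rplp1 from −0.95 to −0.44 and Rpsa from −0.74 to −0.32. In the same way, Rplp2 ranged from −1.30 to −0.58. Higher than control stood Rpl26 (1.10 ± 0.80), Rps3a3 (0.82 ± 1.56) and Rpl22l1 (0.57 ± 1.23), the last 2 with few counts. Rps3a3 ranged from 0.25 to 1.64 with 1 sum left out.

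The share of counts did not separate dim from control CMs. It was 1.09% ± 0.117 (SD, n = 2) against 1.13% ± 0.0892, a difference of −0.0395 percentage points (two-sided exact permutation p = 0.67, where 0.33 is the smallest possible), and the 2 groups overlapped. It was 0.0428 points without the dim CMs of M116 and 0.0235 points without M26. The difference was −0.134 points without mitochondrially encoded genes (exact permutation p = 0.33). The 3 comparisons share their sums in pairs, so their values are not independent of each other.

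**Figure D4:**
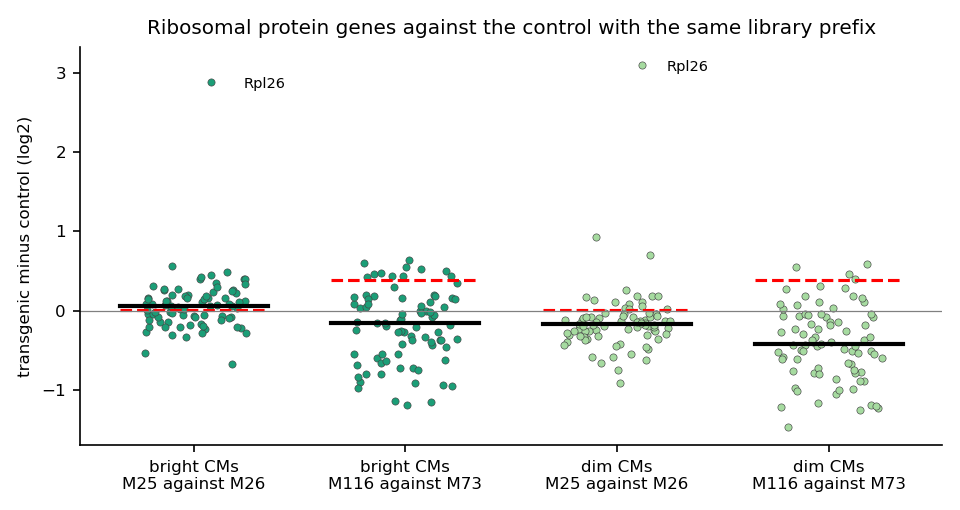
Log2 difference of each of 81 members from the control mouse with the same library prefix, for bright CMs (left) and dim CMs (right), on TMM-normalized CPM. Points are genes, black lines the members' median and red dashed lines the median of all genes tested. The members' median lies below that of all genes in 3 of the 4 columns, and Rpl26 stands apart in the comparisons with M26.

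CMs of the heterozygous mouse were set beside M73, the control of their plate, with no test. Bright CMs had 58 of 80 members lower (median −0.25, all genes 0.45, of which 39.3% were lower), and dim CMs 48 of 80 (median −0.06, all genes 0.48, of which 39.1% were lower).

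The difference of Rpl26 from control rested mainly on 1 control mouse. Without M26, its log2 fold change was 0.20 in bright and 0.30 in dim CMs. Rpl26, a large subunit protein near the exit of the peptide tunnel, stood at 13.5 CPM in M26 and 81.3 CPM in M73. In the homozygous mice it stood at 119.9 and 127 CPM in bright and 139 and 116.1 CPM in dim CMs, and in M72 at 13.5 CPM in both bright and dim CMs. The processed pseudogene Gm15772, a copy of the spliced Rpl26 mRNA at chr5:3236431-3236868 (plus strand, GRCm38, GENCODE M21), had the mirror image. It held 91.0 CPM in M26 and 84.4 and 87.2 CPM in M72, but between 0.667 and 1.20 CPM in the other 5 sums. Gene and copy together were 104, 82.02, 121, 127, 140.0, 117, 97.9 and 101 CPM in M26, M73, bright M25, bright M116, dim M25, dim M116, bright M72 and dim M72. On this sum, M26 and M72 lay among the other mice.

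The copy differs from the Rpl26 mRNA at only 2 of 438 aligned bases, C224T and T335C, counted from 1 at the start of the Rpl26 transcript. The bases around each are shown because they tell gene and copy apart, with the differing base in capitals. The first Rpl26 stretch spans an exon junction and is given as spliced, the other lies within an exon of the gene (chr11:68901583-68906989, plus strand).
Rpl26, position 224, spliced: agttcaggttgttcgCggacactacaaagg
Gm15772, chr5:3236592-3236621, plus strand: agttcaggttgttcgTggacactacaaagg
Rpl26, chr11:68903283-68903312, plus strand: tggcacaaccgtccaTgtgggcatccaccc
Gm15772, chr5:3236703-3236732, plus strand: tggcacaaccgtccaCgtgggcatccaccc
In M26, 87.1% of the counts on the pair fell on the copy, and in M72 86.2% in bright and 86.6% in dim CMs, against 0.523% to 0.893% in M73, M25 and M116. The split was thus nearly the same in bright and dim CMs of a mouse and differed between mice of the same prefix and between the control mice. With the reads of the copy added, the log2 fold change of Rpl26 was 0.10 ± 0.33 in bright and 0.18 ± 0.35 in dim CMs against control.

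Other members had copies whose share went by mouse as well. Among 87 pairs of a member and a gene that share at least 100 stretches of 50 bases and hold at least 100 counts, 39 held at least 300 counts, and in 9 the ratio of the copy's CPM + 1 between the highest and the lowest sum was at least 6. Of these, 8 were processed pseudogenes of the 5 members Rpl26, Rplp0, Rps2, Rpl29 and Rpl34. The last was Tlcd1, which overlaps Rpl23a. The rule was chosen after the values were seen.

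For Rplp0, the stalk base, the copies Gm8730, Gm9625, Gm6278 and Gm14165 together took 0.920% of the counts on gene and copies in M26 and 1.03% and 1.24% in M72, but 13.1% to 15.4% in the other sums. The best of them, Gm8730 (chr8:102864845-102865798, minus strand), differs at 12 of 954 aligned bases. Gene and copies together were lowest in M73 at 387 CPM and lay between 581 and 805 CPM elsewhere. For Rps2, of the small subunit, Rps2-ps13 (chrX:52898588-52899469) had 0 counts in M73 and in both sums of M72, and 10.6% to 12.6% of the counts on the pair in M26, M25 and M116. A count of 0 allows up to 3 counts per sum.

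For Rpl29, Gm8210 (chr1:43189156-43189638) took 0.0781% and 0.124% in M116 and 5.73% to 12.1% in the other mice. Rpl34-ps1 (chr6:71124610-71124963), which differs from Rpl34 at 2 of 354 aligned bases, took 0.459% and 0.650% in M116 and 4.09% to 14.03% elsewhere. The mice grouped differently for different members: M26 with M72 for Rpl26 and Rplp0, M73 with M72 for Rps2, and M116 alone for Rpl29 and Rpl34. M73 and M72 are the mice of plate 1 and M116 the mouse of plates 2 and 3 of their prefix, so that plate and mouse cannot be told apart for Rps2, Rpl29 and Rpl34. For Rpl26 and Rplp0, M73 and M72 differed on the same plate, as did M25 and M26. Fold changes of these 5 members against control are uncertain for this reason. The part of the mixed genetic background in these splits was not tested.

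**Figure D5:**
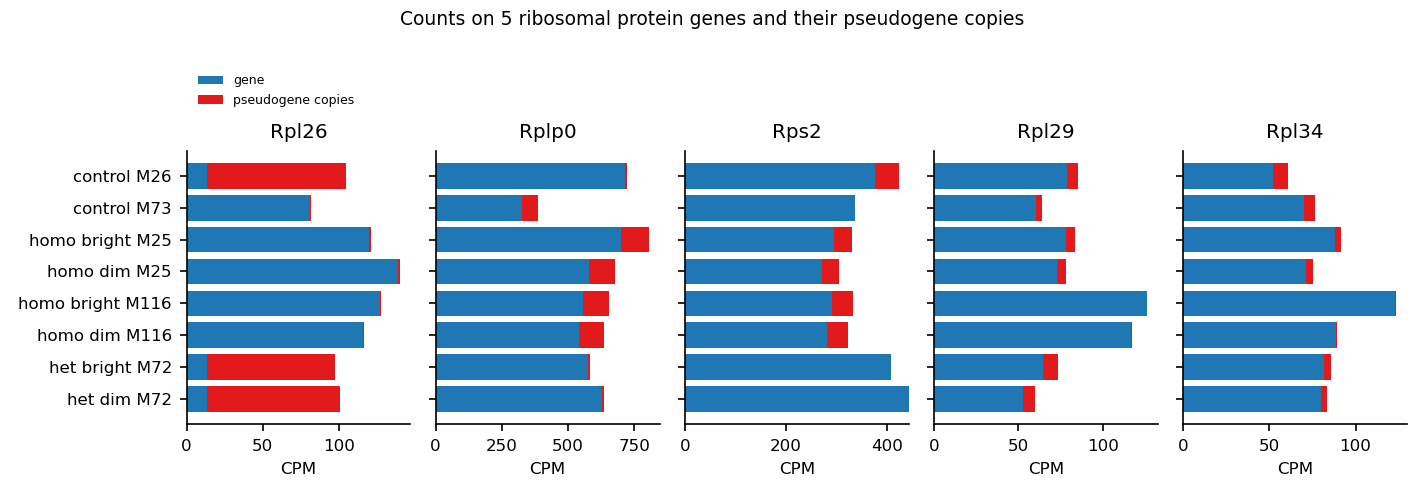
CPM on 5 ribosomal protein genes (blue) and, stacked on them, on their processed pseudogene copies (red) in the 8 sums, with 1 panel per gene and its own horizontal axis from 0. Bars have no error, since each is 1 sum of cells. The red part of Rpl26 is large in M26 and M72 only, and in each mouse the bright and dim sums look alike.

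Other genes of the pathway were counted from lists of translation, ribosome assembly and its regulation. None of the lists held a gene called by edgeR's quasi-likelihood test or by DESeq2 in any of the 3 comparisons. Of 17 tested TOP and translation genes, 9 were higher and 8 lower in bright CMs against control (median log2 fold change 0.07), 8 and 9 in dim CMs against control (−0.01) and 13 and 4 in bright against dim CMs (0.14). Of 18 ribosome biogenesis genes the counts were 9 and 9 (0.18), 10 and 8 (0.09) and 11 and 7 (0.12), and of 14 regulators 7 and 7 (0.10), 7 and 7 (−0.02) and 10 and 4 (0.20). An unadjusted p under 0.05 was reached by at most 1 translation gene, 1 biogenesis gene and 2 of the 14 regulators in a comparison, against the 6.55%, 6.22% and 4.12% of all genes given above.

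Eef1a1, the factor that brings aminoacyl-tRNA to the ribosome, had the largest log2 difference of the translation list in bright against control CMs. It stood at 452 and 299 CPM in M26 and M73, at 1005 and 1229.9 CPM in bright and at 632 and 1165 CPM in dim CMs of M25 and M116. Its log2 fold change was 1.26 ± 0.29 in bright and 0.96 ± 0.38 in dim CMs against control, with adjusted p of 0.663 and 0.757 in edgeR. Eif4ebp1, the inhibitor of cap-dependent initiation that mTOR switches off, stood at 84.5 and 96.7 CPM in control, at 255 and 228 CPM in bright and at 227 and 187 CPM in dim CMs (1.09 ± 0.33 and 0.90 ± 0.35, adjusted p 0.663 and 0.755 in edgeR). For both genes all homozygous sums lay above both control sums, as for 24.3% (bright) and 23.8% (dim) of all genes, and neither passed the threshold. They were named after their values were seen.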

How the data were processed

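The authors mapped the reads of each SMART-seq2 cell with STAR and counted them per gene, and deposited raw counts as whole numbers for 55538 features in 234 cells. Genome build, annotation and strand column are not given in the sources used here. A cell held 487 to 1392253 counts (median 711527). The 15 cells under 1000 genes were kept. A symbol was repeated for 141 features, which were kept apart.

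From the deposited counts, sums per mouse and brightness class entered edgeR (version 4.0.16, R 4.3.3) with its filterByExpr filter, TMM factors and quasi-likelihood F-test (Benjamini-Hochberg adjustment over all genes, threshold 0.05), with the 4 sums of each comparison and 2 mice per group. Values with ± are log2 fold changes with their SE unless said otherwise. A member was said to be higher or lower in every mouse from TMM-normalized CPM, while values printed as CPM are scaled by the total alone. Shares were compared with two-sided exact permutation tests and given exact Clopper-Pearson intervals (95%, scipy 1.17.1), for counting error only. Of these steps, only the edgeR test was tried on simulated counts. Their changes were larger than the members' medians given here, so the power for such small differences was not tested. Alternatives were DESeq2 1.42.0, library size, no filter, cells with at least 1000 genes, equal weight of cells (limma 3.58.1, log2 of mean CPM + 1), all groups in 1 fit, members in at least 50% of cells, the library prefix or mouse as a block, and each sum left out. Chosen after seeing the data were the removal of wells rich in other markers and the addition of copies' reads.

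M25 and M116 each gave both bright and dim CMs, so these sums are paired by animal. Over 10366 genes the deviations of the mice in bright and dim CMs correlated with Pearson r = 0.096 and Spearman rho = 0.147, and over the 82 members with 0.429 and 0.397; genes are not independent replicates.

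Members and lists were chosen with earlier results of these data known. Named were, per comparison, members past the threshold, the 3 with the largest and the 3 with the smallest log2 fold change, a fixed set of members and the 3 paralogue pairs. Other members named for their level, unadjusted p or copies were chosen after their values were seen. Start windows came from RefSeq, copies and transcript lengths from GENCODE M21. Mouse tissue and proteome data were not analysed here.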

Additional observations from a re-analysis of the deposited data

Results flagged for a closer look

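The share of counts on the 82 genes was lower in bright than in dim CMs of the heterozygous mouse M72, by −0.230 percentage points (−0.110 as the median over cells), whereas it was higher in bright CMs of the homozygous mice M25 (0.202 points, and 0.117 without marker-rich wells) and M116 (0.198 points, and 0.208 without such wells). It stands here because the only heterozygous mouse went one way and both homozygous mice the other. The difference between the genotypes was not tested, since there was 1 heterozygous mouse.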

How the results depend on the processing

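No member was called in any comparison under any alternative. With each sum left out in turn, the dim minus control share ranged from −0.122 to 0.0428 percentage points, positive without the dim CMs of M116 (0.0428) and without M26 (0.0235). The bright minus dim share of M72 was −0.268 points without mitochondrially encoded genes, −0.110 as the median over cells and −0.213 without marker-rich wells. With library size alone and with cells weighted equally, the members' median log2 fold change was 0.27 and 0.29 in bright against control CMs, 0.036 and 0.084 in dim against control CMs, and 0.25 and 0.25 in bright against dim CMs. The last was 0.17 without marker-rich wells and ranged from 0.041 (without the bright CMs of M25) to 0.41 (without the dim CMs of M25) with a sum left out, and was 0.078 (below the 0.12 of all genes) and 0.35 without the dim and bright CMs of M116. The mouse as a replicate block in bright against dim CMs left that median at 0.22, and the library prefix as a block changed no call. Rplp0 turned to 0.27 (library size), 0.61 (equal weight), 0.10 (copies added) and 0.041 (prefix block) in bright against control CMs, and to 0.10 and 0.34 (library size, equal weight) in dim against control CMs. With a sum left out, its log2 fold change ranged from −0.41 to 0.55 and from −0.57 to 0.42 in these comparisons, highest without M26. In the same way, Rpl22l1 ranged from −0.38 to 1.15 in dim against control CMs. In bright against dim CMs the ranges were −0.97 to 0.62 for Rpl22l1, −0.23 to 0.10 for Rpl26, −0.33 to 0.91 for Rpl13a, −0.094 to 0.34 for Rplp0, −0.0087 to 0.60 for Rplp1, −0.10 to 0.71 for Rplp2 and −0.011 to 0.26 for Rpsa. Of 372 further values of named genes, 47 had the opposite sign and 0 passed the threshold. Few counts fell on members such as Rpl13a, Rpl22l1, Rps3a3, Rpl32l and Rpl6l, which stayed below 12 CPM in every sum. The part of depth in these low values was not tested. M73 rests on 9 cells.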
